A study of Mus musculus with 8 samples.

Results

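The GATA zinc finger transcription factors and their FOG cofactors were followed in mouse embryos at E9.5, in the posterior part of the second heart field (pSHF). Members were all spots other than controls whose gene name in the scanner files was Gata1, Gata2, Gata3, Gata4, Gata5, Gata6, Zfpm1 or Zfpm2, with every probe kept. This gave 8 genes of 27827 gene names, on 14 of 41174 probes and 32 of 43379 spots. The rule used names and no measured value.

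GATA factors are DNA-binding proteins that recognize the letters GATA through a pair of zinc fingers. Gata1, Gata2 and Gata3 are known for blood cell formation, and Gata4, Gata5 and Gata6 for heart and endoderm. The FOG proteins, Zfpm1 (FOG1) and Zfpm2 (FOG2), do not act by binding DNA on their own but attach to a GATA zinc finger and recruit corepressors to it. FOG1 is the classical partner of Gata1 in red cells and platelets, and FOG2 that of Gata4 in the heart. Gata4 protein also binds the T-box factor Tbx5, and both genes are known for their part in atrial septation.

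The study asked which transcripts of the pSHF depend on Tbx5. Its 8 arrays held 4 samples heterozygous for a Tbx5 mutation (Tbx5-/+ in the labels, written Tbx5+/- here) and 4 wild-type samples, all of E9.5 pSHF tissue microdissected from litters of hormone-primed females. Mice were kept on a mixed background. The mutant samples carry 1 mutant allele in all cells, so a change in the pSHF cannot be told apart from a change that began in another tissue. In both groups the samples are numbered 1, 5, 6 and 7; the labels place numbers 1 and 5 on array 1 and numbers 6 and 7 on array 2. Whether a sample is 1 embryo or a pool is not given for these samples in the sources used here, so p-values measure the spread between these samples.

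Values are background-subtracted Cy3 intensities after variance stabilization between arrays (VSN), on a log2 scale, and every difference is Tbx5+/- minus wild-type. Between 45.01% and 52.8% of spots were well above background on the Tbx5+/- arrays and between 50.9% and 63.6% on the wild-type arrays. Along the leading principal component (56.9% of the variance) Tbx5+/- 1 lay with the wild-type arrays at -37.2, and the other Tbx5+/- arrays lay between 26.1 and 112.1. The median difference of all 20028 probes tested was -0.19. The gap between 3′ and 5′ probes of the same gene, over 2347 genes, was 1.25, 1.61, 1.77 and 1.61 in Tbx5+/- 1, 5, 6 and 7 and 1.21 to 1.36 in wild-type. The brighter Tbx5 probe (A_52_P523712) read 9.01, 9.73, 9.16 and 8.62 in Tbx5+/- 1, 5, 6 and 7 against 11.47, 11.56, 10.42 and 11.54 in wild-type, a difference of -2.12 ± 0.32 (SE; limma adjusted p = 0.092). The dimmer Tbx5 probe (A_51_P469338) differed by -0.15 ± 0.32 (limma adjusted p = 0.789), and the part of the gene that the mutant allele lacks is not given in the sources used here.

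Only probes that the scanner marked as well above background throughout 1 group (4 of 4 arrays) entered the test. All 8 genes had a probe that was tested, and 10 of the 14 probes passed (71.4%, against 48.6% of all probes). The text therefore covers every member gene, while 4 probes remain with no test. Spots carry 60-base probes. Stretches of 30 bases from 5 of them are shown because they carry the Gata4, Gata5 and FOG results, and because only 1 of the 2 Gata4 probes was detected. Capitals mark AATAAA, the letters of a polyadenylation signal, which 4.78% of all 41174 probes hold on the strand printed.
Gata4 A_51_P492355: gaagcccaccttggctgcaagcacagcaca
Gata4 A_52_P4201: ctagaaaatacagactgtttgcaaAATAAA
Gata5 A_51_P213260: cacagctgtgcacaaggtcatagcaccatg
Zfpm1 A_51_P360840: tattactgctcttctcacgccgccgagcac
Zfpm2 A_51_P336509: tcaaatgaactaactgagttactaaagaaa
In the scanner files' annotation (mm9) the first Gata4 probe lies at chr14:63817752-63817773 on the minus strand, a span of 22 bases for a probe of 60. The second lies at chr14:63818147-63818206, also on the minus strand. The Gata5 probe lies at chr2:180060223-180060282 (minus strand), the Zfpm1 probe at chr8:124861053-124861112 (plus strand) and the Zfpm2 probe at chr15:40935115-40935174 (plus strand). Whether a probe falls in coding sequence or an untranslated part is not given in these files.

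The cardiac and endodermal factors Gata4, Gata5 and Gata6 and the cofactor Zfpm2 had lower values in Tbx5+/- pSHF on all 5 of their tested probes, with no overlap between groups. The 3 of these probes that were well above background on all 8 arrays (Gata5, Gata6 and Zfpm2) were lower by 2.14 to 2.25 times. The Gata4 probe and the second Gata6 probe were not well above background on 2 and 1 of the 4 Tbx5+/- arrays, and were tested through wild-type, where they were high. The cofactor Zfpm1 was lower by 1.85 times with overlap. The blood factors Gata1 and Gata2 were lower by 1.16 to 1.36 times with overlap, and Gata3 was the only gene with a higher mean in Tbx5+/-. Gata1 was also tested through wild-type, with 3 of 4 Tbx5+/- arrays well above background. With limma, 0 of the 10 member probes passed an adjusted p of 0.05, as did 0 of all probes (0%). At an unadjusted p under 0.05, 6 of 10 member probes were lower and 0 were higher, where 18.5% of all probes tested were lower and 3.38% higher. Every Tbx5+/- value lay below every wild-type value in 5 of 10 member probes (8.99% of all probes), and the reverse held for 0 of 10 (0.744% of all probes). Among the 7 member probes well above background on all 8 arrays the groups were separated, with Tbx5+/- lower, in 3 (Gata5, Gata6 and Zfpm2; 8.06% of all such probes). The median difference was -0.99 over the 10 member probes and -0.19 over all probes, and -0.89 and -0.15 over those well above background on all 8 arrays.

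The embryo numbers were used as a replicate block in another limma fit, which takes samples of the same number as pairs. For number 7 the deviations of the same-numbered samples correlated at only 0.137, and another number correlated more highly (0.372). For the other numbers the same-number correlation ran from 0.400 to 0.593. The labels do not say that equal numbers share a litter, and every call of the block fit rests on this pairing. In that fit the same 5 probes, of Gata4, Gata5, Gata6 and Zfpm2, passed an adjusted p of 0.05 as lower (10.7% of all probes were called lower). No member was called higher (0.379% of all probes). Without Tbx5+/- 1 and with no block, 4 member probes passed as lower, of Gata4, Gata6 and Zfpm2 (12.1% of all probes lower, 7.04% higher). Gata5 then had a limma adjusted p of 0.0582. Leaving out any other single array called 0 member probes. Without wild-type 1 the Gata4 and brightest Gata6 differences were -1.05 and -0.88 (limma adjusted p = 0.144 and 0.0971).

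**Figure D1:**
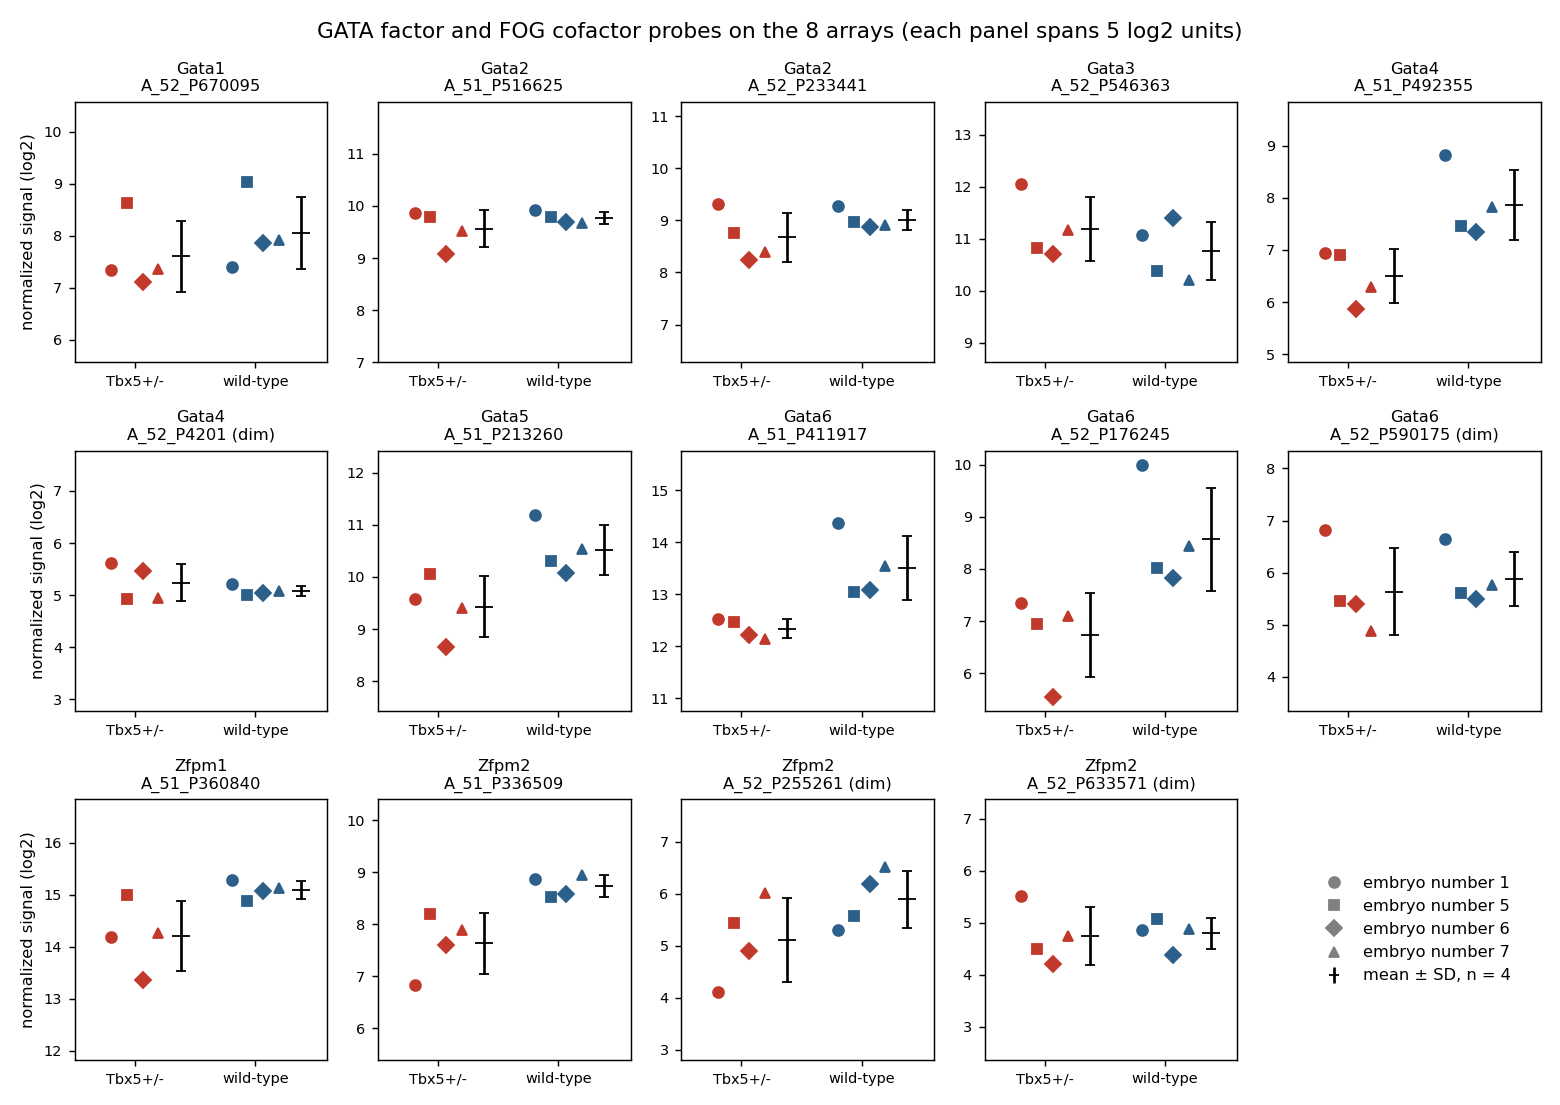
Normalized signal (log2) of all 14 probes in the 8 samples; red points are Tbx5+/-, blue points wild-type, shapes give the embryo number, and black bars the mean ± SD of 4 arrays, with each panel spanning 5 log2 units. Probes marked dim were not tested. The groups do not overlap for the brighter Gata4 probe, Gata5, 2 Gata6 probes and the brightest Zfpm2 probe.

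Gata4, the partner of Tbx5 in cardiac gene activation, read 6.94, 6.91, 5.86 and 6.29 on probe A_51_P492355 in Tbx5+/- 1, 5, 6 and 7. In wild-type 1, 5, 6 and 7 it read 8.82, 7.46, 7.34 and 7.83. The highest Tbx5+/- sample thus lay below the lowest wild-type sample, and wild-type 1 stood above the rest of its group. The probe was well above background on all 4 wild-type arrays but on 2 of 4 Tbx5+/- arrays, so it was tested through the group where it was high and the mutant level lies near the detection limit. On these values the difference was -1.37 ± 0.37 (SE), or 2.58 times lower, with a limma adjusted p of 0.12 without the block and 0.0336 with it. Within number 5 the difference was -0.55, the smallest of the 4 numbers, and within the others it ran from -1.48 to -1.88. With the 3′ to 5′ gap of each array as a covariate the difference was -0.72 (limma adjusted p = 0.571).

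The other Gata4 probe, A_52_P4201, was printed on 10 spots of each array and was well above background on 0 of 8 arrays. Its values ran from 4.93 to 5.62 in Tbx5+/- and from 4.998 to 5.22 in wild-type. It holds 28.3% G and C, a share that 4.27% of all probes do not exceed, against 53.3% in the probe that responded. The 2 probes start 395 bases apart. Gata4 was therefore read through 1 probe.

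Gata5, a GATA factor of endocardium, epicardium and endoderm, read 9.57, 10.07, 8.66 and 9.41 in Tbx5+/- 1, 5, 6 and 7. The wild-type samples read 11.19, 10.30, 10.07 and 10.54. The groups only just separated, with Tbx5+/- 5 at 10.066 and wild-type 6 at 10.068. The difference was -1.10 ± 0.33 (SE), 2.14 times lower, with a limma adjusted p of 0.152 without the block and 0.0397 with it. Within number 5 it was -0.23, near the median of all probes, and within the other numbers it ran from -1.13 to -1.62. With the 3′ to 5′ gap as a covariate it was -0.64 (limma adjusted p = 0.615).

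Gata6, which overlaps with Gata4 in early heart and endoderm development, was read by 3 probes on the plus strand of chromosome 18. The brightest, A_51_P411917, read 12.53, 12.47, 12.21 and 12.15 in Tbx5+/- 1, 5, 6 and 7 and 14.37, 13.05, 13.07 and 13.54 in wild-type. The mutant samples lay close together (SD 0.19, n = 4) and the wild-type samples were spread more widely (SD 0.62, n = 4), with wild-type 1 on top. The difference was -1.17 ± 0.30 (SE), 2.25 times lower, with a limma adjusted p of 0.11 without the block and 0.0356 with it.

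The second Gata6 probe, A_52_P176245, starts 20528 bases 5′ of the first. It read 7.35, 6.95, 5.55 and 7.09 in Tbx5+/- and 9.995, 8.02, 7.82 and 8.45 in wild-type, in the same order of numbers. Tbx5+/- 6 was not well above background on this probe, which was tested through wild-type. On these values the difference was -1.84 ± 0.52 (SE), or 3.57 times lower, with a limma adjusted p of 0.133 without the block and 0.0336 with it. Both Gata6 probes thus gave groups that do not overlap. With the 3′ to 5′ gap as a covariate the brightest probe differed by -0.85 and the second by -0.84 (limma adjusted p = 0.436 and 0.648). The third probe, A_52_P590175, lies a further 9977 bases 5′ and holds 80.0% G and C. It rose well above background on 2 wild-type and 0 Tbx5+/- arrays, its groups overlapped, and it gave no usable level.

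Zfpm2 (FOG2), the cofactor of Gata4 needed for heart septation and coronary vessels, read 6.84, 8.20, 7.59 and 7.89 on probe A_51_P336509 in Tbx5+/- 1, 5, 6 and 7. Wild-type samples lay within a narrow range at 8.86, 8.53, 8.58 and 8.95. All mutant values lay below all wild-type values, and Tbx5+/- 1 was the lowest, the reverse of its place for Gata4 and Gata6. The difference was -1.10 ± 0.29 (SE), 2.14 times lower, with a limma adjusted p of 0.114 without the block and 0.0442 with it. Without Tbx5+/- 1 it was -0.84 (limma adjusted p = 0.03), and with the 3′ to 5′ gap as a covariate it was -1.54 (limma adjusted p = 0.345).

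The other Zfpm2 probes were dim. A_52_P255261 at chr15:40606107-40606166 was well above background on 1 wild-type and 0 Tbx5+/- arrays, with means of 5.89 in wild-type and 5.12 in Tbx5+/-. A_52_P633571 at chr15:40703938-40703997 was well above background on 0 of 8 arrays. They start 329008 and 231177 bases before the probe that was tested, on the same strand, and add no measured level to it.

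Zfpm1 (FOG1) read 14.19, 15.00, 13.37 and 14.27 in Tbx5+/- 1, 5, 6 and 7 and 15.28, 14.88, 15.07 and 15.14 in wild-type. In 3 of 4 mutant samples it lay below every wild-type value, and Tbx5+/- 5 lay among the wild-type samples. The difference was -0.89 ± 0.31 (SE), 1.85 times lower, with a limma adjusted p of 0.186 without the block and 0.0767 with it. Within number 5 it was 0.12 and within number 6 it was -1.70, so the sign was not shared by all numbers.

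Gata1, the master regulator of red cell genes, was read by 1 probe on 10 spots per array (A_52_P670095, chrX:7536849-7536908, minus strand). It was well above background on all 4 wild-type and 3 of 4 Tbx5+/- arrays, so it was tested through wild-type. It read 7.35, 8.62, 7.12 and 7.36 in Tbx5+/- 1, 5, 6 and 7 and 7.41, 9.03, 7.87 and 7.93 in wild-type. The samples numbered 5 were the highest of both groups, and the groups overlapped. The difference was -0.45 ± 0.41 (SE; limma adjusted p = 0.509 without the block and 0.131 with it), lower within all 4 numbers. It moved with single samples, to -0.12 without wild-type 5 and to -0.78 without Tbx5+/- 5, and centring each array gave -0.13. Red cell markers also differed between embryo numbers. The summed level of the 9 primitive erythrocyte markers tested was 16.8 in both samples numbered 1. In each group it was highest in number 5, at 19.5 in Tbx5+/- and 18.9 in wild-type. Numbers 6 and 7 lay between, at 19.1 and 18.8 in Tbx5+/- and 18.4 and 18.2 in wild-type. Tbx5+/- 6 nevertheless had the lowest Gata1 value of all samples (7.12). The part of blood content in the Gata1 values was not tested.

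Gata2, a factor of blood progenitors and endothelium, was read by 2 probes whose starts lie 473 bases apart on the plus strand of chromosome 6. A_51_P516625 (chr6:88156835-88156894) read 9.87, 9.78, 9.07 and 9.52 in Tbx5+/- and 9.93, 9.79, 9.69 and 9.68 in wild-type. A_52_P233441 (chr6:88156362-88156421) read 9.31, 8.76, 8.24 and 8.399 against 9.28, 8.97, 8.87 and 8.91. Both overlapped, with Tbx5+/- 6 the lowest sample on each. Their differences were -0.21 ± 0.21 and -0.33 ± 0.25 (SE; limma adjusted p = 0.555 and 0.428), close to the median of all probes. Leaving out 1 array, they ran from -0.31 to -0.05 and from -0.54 to -0.19. The sign was not settled: under normexp and quantile normalization the differences were 0.12 and 0.03.

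Gata3, known for T cells and for sympathetic neurons, ear and kidney, had groups that overlapped. Probe A_52_P546363 (chr2:9778983-9779042, minus strand) read 12.05, 10.81, 10.72 and 11.16 in Tbx5+/- and 11.07, 10.39, 11.40 and 10.21 in wild-type. The difference was 0.42 ± 0.36 (SE; limma adjusted p = 0.481). It was positive within numbers 1, 5 and 7 and -0.69 within number 6. Without Tbx5+/- 1 it was 0.13 (limma adjusted p = 0.767). It was larger under other settings, at 0.78 with 75th percentile scaling, 0.66 with normexp and quantile normalization, 0.74 after centring and 0.98 with the 3′ to 5′ gap as a covariate, with limma adjusted p from 0.25 to 0.43.

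**Figure D2:**
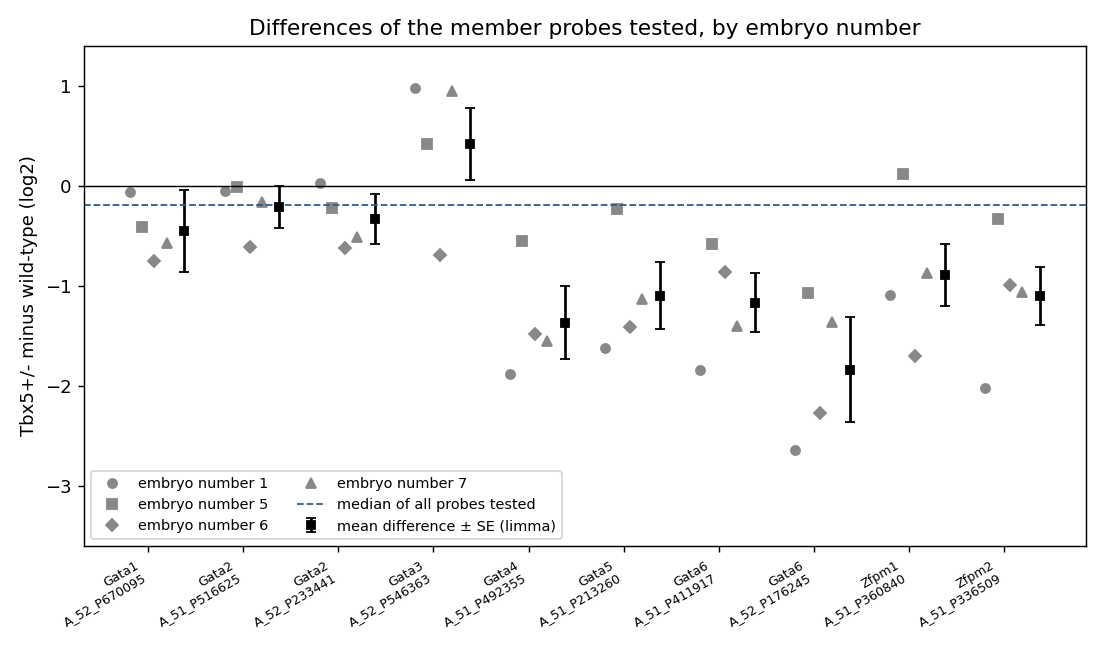
Tbx5+/- minus wild-type (log2) for the 10 member probes tested: grey shapes are the differences within each embryo number, black squares the mean difference ± SE from limma, and the dashed line the median of all probes tested (-0.19). For Gata4, Gata5, Gata6 and Zfpm2 all 4 numbers lie below 0, with number 5 nearest to it.

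The array barcodes in the file headers put all samples labelled array 1 on 1 slide and those labelled array 2 on another, and each slide held both groups. Within array 1 and array 2 the difference was -1.22 and -1.51 for Gata4, -0.92 and -1.27 for Gata5, -1.21 and -1.13 for the brightest Gata6 probe, -1.86 and -1.81 for the second, and -1.18 and -1.02 for Zfpm2. For Zfpm1 it was -0.49 and -1.29. The Gata4, Gata5, Gata6 and Zfpm2 differences were thus of like size on both slides, and with the array label as a block 0 of 10 member probes passed an adjusted p of 0.05 in limma.

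Whether members changed unequally was asked with the difference of their brightest tested probes within each array. This takes out only a shift shared by all log2 values of an array. Of 8 pairs chosen for known partnership or shared expression, 0 passed an exact two-sided permutation test (70 assignments, smallest possible p 0.0286), with p from 0.229 to 0.743 and 0.743 for every pair after adjustment. The changes of Gata4 and Gata5 differed by -0.27 (exact permutation p = 0.229), those of Gata4 and Gata6 by -0.20 (exact permutation p = 0.4), and those of Gata5 and Gata6 by 0.07 (exact permutation p = 0.743). For Gata4 and Zfpm2 the value was -0.27 (exact permutation p = 0.514), for Gata6 and Zfpm2 -0.07 (exact permutation p = 0.714) and for Zfpm1 and Zfpm2 0.21 (exact permutation p = 0.629). These p-values do not show that the genes changed alike. The Gata4 probe was well above background on 2 of 4 Tbx5+/- arrays. The Gata4 pairs therefore rest on a mutant level near the detection limit. The size depended on the scaling for Gata4: under 75th percentile scaling its change differed from that of Gata5 by -1.08 and from that of Gata6 by -1.05 (exact permutation p = 0.0286 for each, 0.114 after adjustment over the 8 pairs), and from that of Zfpm2 by -0.90 (exact permutation p = 0.286). Within embryo numbers Gata4 against Gata5 was negative in all 4 (-0.42 to -0.07), while Gata4 against Gata6 ran from -0.62 to 0.03 and Zfpm1 against Zfpm2 from -0.72 to 0.93. For the partners Gata1 and Zfpm1 it was 0.44 (exact permutation p = 0.457), and for Gata1 and Gata2 -0.24 (exact permutation p = 0.571), negative within all 4 numbers. Exchanging the groups only within embryo numbers, an alternative added after the values were seen, allows 16 assignments and no p below 0.125. Of the 8 pairs, Gata4 against Gata5 and Gata1 against Gata2 reached that value in this exact test, so 0 could pass.

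All 28 pairs of the 8 genes were then compared, a choice made after the values were seen. The change of Gata2 was less negative than that of Gata4 by 1.16, of Gata6 by 0.96, and of Gata5 and Zfpm2 by 0.89 each. These 4 pairs and the pair of Gata3 and Gata6 (1.59) reached the smallest p the design allows, 0.0286, by the exact permutation test. After adjustment over the 28 pairs that became 0.16, so none passed. The pair with Gata4 again rests on a mutant level near the detection limit. In all 4 Gata2 pairs the sign was the same within every embryo number. Under 75th percentile scaling and under normexp with quantile normalization the 4 Gata2 pairs stayed between 0.82 and 1.95.

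**Figure D3:**
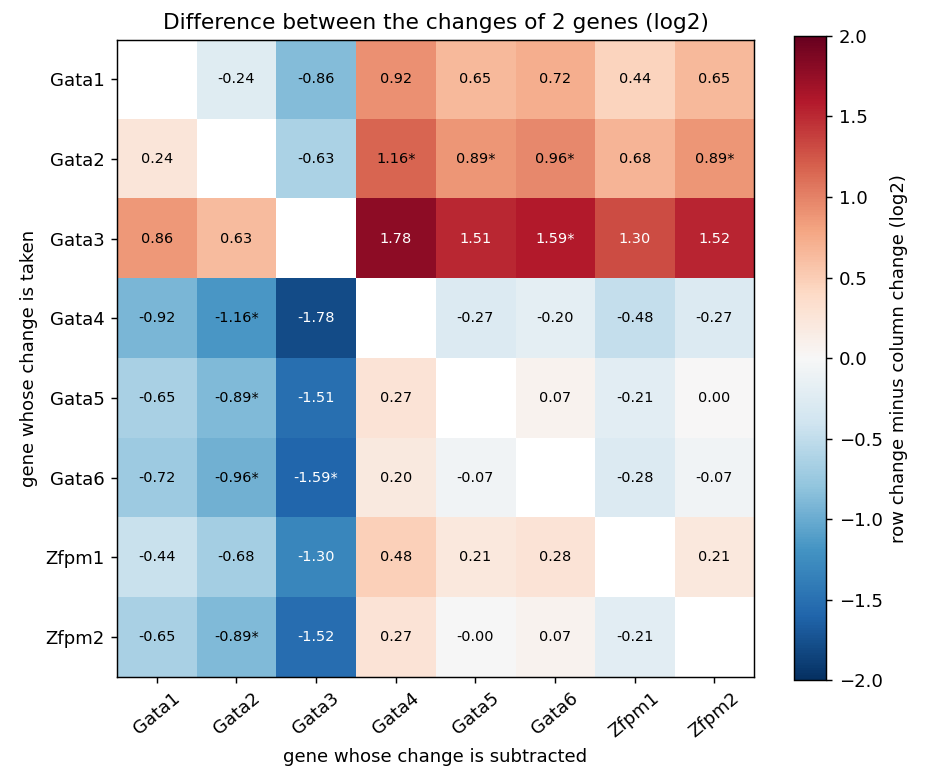
Difference between the changes of 2 genes (log2): each cell is the change of the row's gene minus that of the column's gene, from the brightest tested probe of each. Asterisks mark an unadjusted exact permutation p of 0.0286, the smallest possible; Gata1, Gata2 and Gata3 form the red rows against Gata4, Gata5, Gata6, Zfpm1 and Zfpm2.

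Over the 8 arrays the brightest probes of Gata4, Gata5 and Gata6 followed each other, with Pearson's r of 0.969 (Gata4 and Gata5), 0.967 (Gata4 and Gata6) and 0.9004 (Gata5 and Gata6). Zfpm2 had an r of 0.682 to 0.752 with these 3 genes and Zfpm1 of 0.736 to 0.933. Gata1 and Zfpm1 had an r of 0.535, and Gata1 and Gata4 of 0.222. These values describe 8 samples that share a group difference and overall shifts between arrays, and 616 probes of other genes reached an r of 0.9 with Gata4 and 776 with Gata5.

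The probes of other genes most like each member were taken by the highest r over the 8 arrays. For Gata1 they were Pklr (0.992), the red cell pyruvate kinase, Cmpk2 (0.977) and Add2 (0.971), an adducin of the red cell membrane skeleton. For Gata2 they were Dysf, Taf5 and D430028G21Rik (0.987 to 0.988) and for Gata3, whose profile few probes shared, 3632451O06Rik, Rims3 and Kcnf1 (0.926 to 0.948). For Gata4 they were Ezr, Dact1 and Tmcc3 (0.988 to 0.991). For Gata5 they were Nrp1 (0.988), a semaphorin and VEGF receptor, Trim35 and 1110036O03Rik. For Gata6 they were Dlk1 (0.992), Zfp786 and Rtf1. For Zfpm1 they were Speg, Abi3 and Peg3 (0.983 to 0.988), and for Zfpm2 they were Upk3b (0.986), a mesothelial gene, Bcl6b and Pter.

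Partners and targets were taken from lists of known genes, each read through its brightest tested probe. Of the 14 cardiac partners of Gata4, all were tested, 6 were lower at an unadjusted p under 0.05 and 0 higher, with a median difference of -0.67. The 6 include Tbx5, the mutated gene, and Zfpm2, a member already described. With the replicate block 3 passed as lower: Tbx5, Zfpm2 and Mef2c (10.7% of all probes were called lower in that fit). Mef2c, a cardiac and skeletal muscle transcription factor, differed by -1.25 ± 0.36 (SE; limma adjusted p = 0.133 without the block), and Ep300, a histone acetyltransferase that coactivates with Gata4, by -0.64 ± 0.21 (limma adjusted p = 0.172). Nkx2-5, the third partner of Tbx5 and Gata4, differed by -0.31 ± 0.31 (limma adjusted p = 0.543), and is named here for its place in that complex and not by the rule.

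Of 15 tested cardiac genes described with GATA sites, 2 were lower at an unadjusted p under 0.05, 0 were higher and the median difference was -0.05. The 2 were Mef2c and Bmp4, a growth factor of the splanchnic mesoderm, which differed by -1.06 ± 0.29 (SE; limma adjusted p = 0.122 without the block and 0.0348 with it). Of 14 tested erythroid genes with GATA sites, 2 were lower at an unadjusted p under 0.05 and 0 higher, with a median of -0.30. Cbfa2t3, a corepressor of the red cell GATA complex, differed by -1.18 ± 0.26 (limma adjusted p = 0.0959 without the block and 0.0347 with it), and Ldb1, its bridging subunit, by -0.92 ± 0.37 (limma adjusted p = 0.207). Of 13 tested endoderm genes with GATA sites, 3 were lower at an unadjusted p under 0.05 and 0 higher, with a median of -0.71. They were Lama1 (-0.96 ± 0.24), Sox17 (-1.01 ± 0.33) and Col4a1 (-0.76 ± 0.33), that is a laminin chain, an endoderm and endothelial transcription factor and a collagen of basement membranes (limma adjusted p = 0.109, 0.172 and 0.223). With the replicate block 3 endoderm genes passed as lower, Lama1 (limma adjusted p = 0.0359), Sox17 (0.0454) and the growth factor gene Bmp2 (0.0402), which is named here after its value was seen. In that fit 10.7% of all probes were called lower. Bmp2 was well above background on 7 of 8 arrays, so it was tested through 1 group only.

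Of 15 subunits of the corepressors that FOG proteins recruit, NuRD and CtBP, 5 were lower at an unadjusted p under 0.05 and 0 higher, with a median of -0.45, and 4 passed as lower with the replicate block (Gatad2b, Chd4, Mbd2 and Mbd3). Those with the smallest p were Gatad2b (-1.50 ± 0.40), Chd4, the ATPase of NuRD (-1.48 ± 0.43), Mbd2 (-0.82 ± 0.31) and Mbd3 (-1.15 ± 0.49), with limma adjusted p from 0.115 to 0.217. Their groups overlapped in each case. Of 8 other genes with a GATA-type zinc finger that were tested, 3 were lower at an unadjusted p under 0.05 (Gatad2b, Rere and Mta1) and 0 higher, with a median of -0.41. At that p 18.5% of all probes were lower. The shares were 6 of 14 for the cardiac partners, Tbx5 and Zfpm2 among them, and 5 of 15 for the corepressors. They were 2 of 15, 2 of 14 and 3 of 13 for the cardiac, erythroid and endoderm genes with GATA sites. For the other genes with a GATA-type zinc finger the share was 3 of 8. With the replicate block 10.7% of all probes were called lower.

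Since these genes mark several cell types of the dissection, marker lists were read beside them. In bulk tissue, fewer cells of a type and less RNA per cell cannot be told apart. All 14 pSHF markers were tested, each well above background on at least 6 of 8 arrays, so the labelled tissue held its markers. Among them 5, with the mutated gene Tbx5, were lower at an unadjusted p under 0.05 (18.5% of all probes) and 0 higher (median -0.59). Tbx5, Foxf1a (-1.59 ± 0.35), Osr1 (-1.34 ± 0.37) and Gli1 (-1.13 ± 0.36) had the smallest p (limma adjusted p from 0.092 to 0.162). Foxf1a, Osr1 and Gli1 were well above background on 7 of 8 arrays, so they were tested through 1 group only. With the replicate block 5 passed as lower, Tbx5, Foxf1a, Osr1, Gli1 and Hoxb1 (limma adjusted p from 0.0336 to 0.0348), the last named after its value was seen. In that fit 10.7% of all probes were called lower. The summed level of that list ran from 14.8 to 17.1 in Tbx5+/- and from 15.88 to 16.005 in wild-type. Of the endothelial markers 12 of 12 were tested. At an unadjusted p under 0.05, 5 were lower (18.5% of all probes) and 0 higher. Kdr (-1.12 ± 0.25), Eng (-0.93 ± 0.30), Sox17 and Tie1 (-0.95 ± 0.32) had the smallest p. With the replicate block Kdr (limma adjusted p = 0.0347), Eng (0.0485) and Sox17 (0.0454) passed. Their summed level ran from 14.8 to 15.2 in Tbx5+/- and from 15.2 to 15.3 in wild-type.

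Of the liver bud markers 8 of 11 on the array were tested, with a median of -0.90. At an unadjusted p under 0.05, 2 were lower, Prox1 (-1.16 ± 0.22) and Apoa2 (-1.89 ± 0.61), and 0 higher (18.5% of all probes lower). Apoa2 was well above background on 7 of 8 arrays, so it was tested through 1 group only. Prox1 passed with the replicate block (limma adjusted p = 0.0336), where 10.7% of all probes were called lower. The summed level of the liver bud markers varied widely within both groups, from 13.03 to 17.1 in Tbx5+/- and from 14.3 to 17.0 in wild-type. It was 13.03 in Tbx5+/- 1 and 17.0 in wild-type 1, the pair with the widest difference for Gata4, Gata5, Gata6 and Zfpm2. No foregut endoderm marker (12 tested, median -0.28), cardiomyocyte marker (12 tested, median 0.06), primitive erythrocyte marker (9 tested, median -0.27) or neural tube marker (8 tested, median 0.32) was lower or higher at an unadjusted p under 0.05. Cardiomyocyte markers summed to between 18.1 and 19.3 in Tbx5+/- and between 18.4 and 19.0 in wild-type, although the heart was cut away per the study's methods. Foregut endoderm markers summed to 16.7 to 17.0 and 16.4 to 17.6, and neural tube markers to 14.2 to 14.8 and 13.6 to 15.5, with Sox1 and Pou3f2 well above background on 0 of 8 arrays. The part of cell type make-up in the Gata4, Gata5, Gata6 and Zfpm2 values was not tested.

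**Figure D4:**
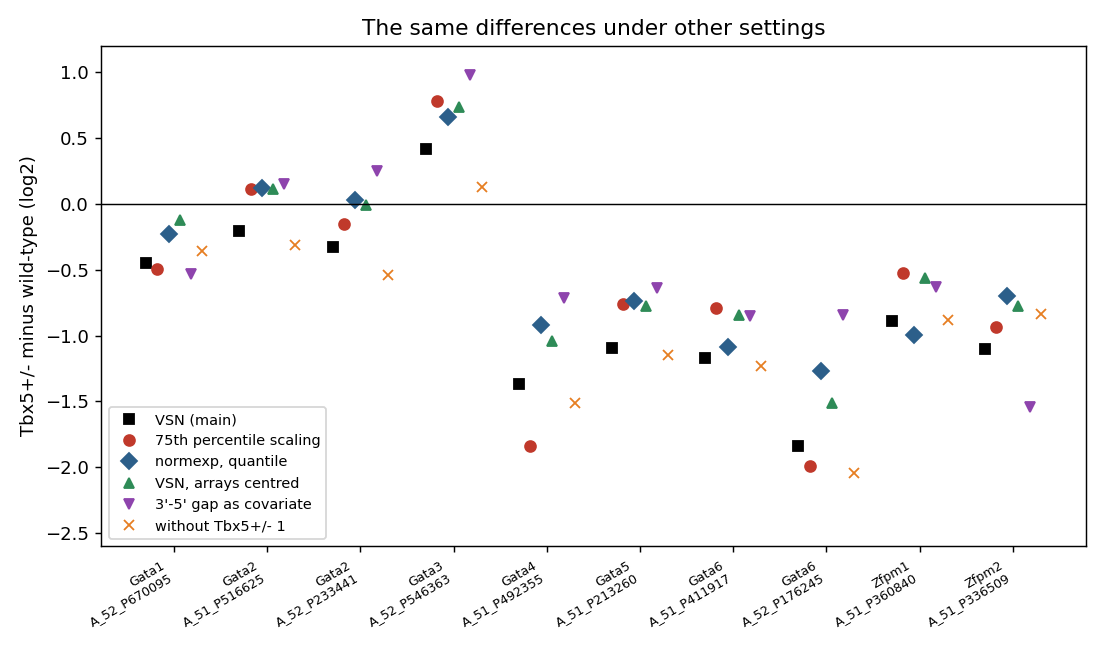
Tbx5+/- minus wild-type (log2) of the 10 member probes tested under 6 settings, each with its own symbol. The Gata4, Gata5, Gata6, Zfpm1 and Zfpm2 differences stay below 0 under all 6, Gata3 stays above 0, and Gata2 crosses it.

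The median of all probes depended on the scaling, at -0.19 with VSN, 0.09 with 75th percentile scaling, -0.01 with normexp and quantile normalization and 0.13 after centring each array. Under these 3 other scalings the Gata4 difference was -1.84, -0.92 and -1.04, that of Gata5 -0.76, -0.74 and -0.77, and that of Zfpm2 -0.94, -0.70 and -0.78. The brightest Gata6 probe differed by -0.79, -1.09 and -0.85, and Zfpm1 by -0.52, -0.99 and -0.57. All of these lay below the median of all probes under the same scaling.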

How the data were processed

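RNA of 4 Tbx5+/- and 4 wild-type pSHF samples (E9.5) was hybridized to 1-color Agilent arrays with 60-base probes annotated on mm9. Per the file headers and the submitters' processing notes, the deposited intensity values come from Agilent Feature Extraction 10.5.1.1. The deposited log2 table was normalized by the authors with VSN and served as an alternative. The scanner software's quality marks, deposited beside the signals as score or other columns, were used as filters.

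Local background was subtracted, 1115 outlier spots were left out and repeated spots averaged; no spot was saturated (0). VSN was programmed in R 4.3.3 (90% of probes kept, 7 iterations), which gave r of at least 0.9999 with the deposited values on every array. Probes well above background on all 4 arrays of a group were compared with limma 3.58.1 (lmFit, eBayes, no covariate, Benjamini-Hochberg over 20028 probes, threshold 0.05). The number of arrays limits the precision. The tests were tried on simulated data.

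Deviations of same-numbered samples correlated at 0.438, 0.4, 0.593 and 0.137 (numbers 1, 5, 6 and 7) across probes, so numbers were taken to pair the samples and a fit with the number as a block was added. For number 7 another number correlated more highly (0.372).

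Named genes were every member probe, Tbx5, the 3 most correlated probes of other genes per member, and up to 4 list genes with the smallest p under 0.05. Current symbols were matched through a RefSeq table (GRCm38.p6 names only) for 33098 of 41174 probes. Members and lists were chosen with earlier results of these data known.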

Additional observations from a re-analysis of the deposited data

Results flagged for a closer look

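Gata1 in Tbx5+/- 5 stood apart from the other Tbx5+/- samples. Its value of 8.62 lay above the next highest sample (7.36) by a gap that was 0.839 of the whole range of the group, just past the critical value of Dixon's test for 4 samples. This was 1 of 28 groups of 4 checked over the 14 probes, and chance alone marks about 1 in 20 such groups. Wild-type 5 was the highest wild-type sample as well (9.03).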

How the results depend on the processing

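No probe passed an adjusted p of 0.05 with limma (unadjusted counts stand in the report), and this held for the deposited values, both other normalizations, centring, both other filters, the array label as a block, a trended robust variance and the 3′ to 5′ gap as covariate. Calls appeared with the replicate block (2218 probes, 5 of them members), with array weights (10004 and 8) and with the replicate block without number 1 (7499 and 6), a setting added after seeing the data. Leaving out 1 array gave 0 to 3840 probes and 0 to 4 member probes, with the highest counts without Tbx5+/- 1; without wild-type 1 there were 211 probes and 0 members. The replicate block changed no other member's call: Zfpm1, Gata1, Gata2 and Gata3 did not pass. With array weights, which gave Tbx5+/- 1 a weight of 0.17 and wild-type 7 one of 5.43, Gata3 passed as higher and Zfpm1 and Gata2 probe A_52_P233441 as lower, beside the 5 probes of the block fit. Gata1 passed as lower with the block without number 1 (limma adjusted p = 0.0327).

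The Gata4, Gata5, Gata6, Zfpm1, Zfpm2, Gata1 and Gata3 differences kept their sign under every alternative that gave a value. Gata2 probe A_51_P516625 changed sign under 75th percentile scaling (0.12), normexp with quantile normalization (0.12), centring (0.11) and the gap covariate (0.15), and A_52_P233441 under normexp (0.029) and the gap covariate (0.25). Among pairs, Gata6 and Zfpm2 changed sign under 75th percentile scaling (0.14), Gata4 and Gata6 (0.17) and Zfpm1 and Zfpm2 (-0.30) under normexp. Without a change of sign, Gata4 against Gata5, Gata6 and Zfpm2 moved most under 75th percentile scaling, to -1.08, -1.05 and -0.90; the cause was not tested. Leaving out 1 array, pair differences ran from -0.51 to 0.080 (Gata1 and Gata2), -0.68 to 0.011 (Gata4 and Zfpm2), -0.10 to 0.29 (Gata5 and Gata6), -0.39 to 0.18 (Gata6 and Zfpm2) and -0.046 to 0.48 (Zfpm1 and Zfpm2). Gata4 and Gata5 ran from -0.37 to -0.17, Gata4 and Gata6 from -0.29 to -0.028, and Gata1 and Zfpm1 from 0.16 to 0.84.

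Signal over background limits Gata4, the second Gata6 probe and Gata1, which dropped out where all 8 arrays had to be well above background. With 4 arrays a group, exact permutation cannot give a p below 0.0286.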

Other observations

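Spots of the Gata1 probe give the technical spread behind its values. On Tbx5+/- 6 only 2 of its 10 spots were well above background. All 10 spots, outliers included, had an SD of 0.53 (log2), against 0.34 on Tbx5+/- 1 and 0.04 to 0.14 on the other 6 arrays.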
